A study of Mus musculus with 118 samples.

Results

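The wide Polycomb domains of mouse embryonic stem cells (ESCs) were taken as RING1B peaks of 8 kb or more that share at least 1 bp with a SUZ12 peak and with a PCGF2 peak. They numbered 592 of 18643 RING1B peaks. The members were chosen by measured values, namely the width of the RING1B peak and its overlap with the other 2 peak lists, so their number, width and overlap are a description and carry no test. The lists were made by calibrated chromatin immunoprecipitation sequencing (cChIP-seq), in which human HEK293T cells, an embryonic kidney line, are mixed in before cross-linking as an internal standard. Peaks were called in untreated E14 ESCs, and the RING1B list was then filtered on the loss of RING1B signal in tamoxifen-treated PRC1CKO cells. The PRC1CPM line (clone 41) combines the Ring1aI50A/D53K mutation with a Ring1b(WT->I53A/D56K)fl/fl conversion allele, and it carries Rosa26::ERT2-Cre. In its untreated state RING1B is wild-type, but RING1A already carries the inactivating substitutions I50A and D53K, and the RING1B substitutions I53A and D56K appear only after tamoxifen. The PRC1CKO line (clone B9) is Ring1a-/- with a Ring1bfl/fl deletion allele and the same Rosa26::ERT2-Cre, and therefore lacks RING1A throughout. Each line is 1 clone, and both express the tamoxifen-inducible recombinase. Untreated PRC1CPM cells gave 3 samples for each of the 3 proteins, and untreated PRC1CKO cells gave a further 3 for SUZ12. PRC1CKO data for RING1B, which entered the RING1B list, were not analysed here. The lists hold positions only, so no signal height, replicate value or depth stands behind a width, and tamoxifen-treated samples were not analysed.

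Polycomb repressive complexes keep developmental genes silent in ESCs. RING1B is the ubiquitin ligase subunit of PRC1, which modifies histone H2A, SUZ12 is a core subunit of PRC2, which methylates histone H3 on lysine 27, and PCGF2 is found in canonical PRC1, the form that recognises the PRC2 mark through its CBX subunits. Both complexes are recruited to unmethylated CpG islands, and at genes for developmental regulators they spread over long stretches of chromatin.

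To show the kind of DNA these domains hold, the 300 bp window outside annotated exons with the most CpG dinucleotides is printed for 5 of the widest members, followed by the same for the member with the lowest CpG content. The sequences are from the plus strand of GRCm38.p6, the assembly to which mm10 corresponds, and capitals mark each CpG. In the HoxB domain the window is chr11:96272366-96272665, in an intron of Hoxb9. In the HoxD domain it is chr2:74705188-74705487, in an intron of Hoxd8 and of the lncRNA gene Gm38462. In the HoxC domain it is chr15:102921918-102922217, in an intron of Hoxc13. In the domain of Nr2f2, which encodes an orphan nuclear receptor, it is chr7:70361037-70361336, in an intron of Nr2f2. In the domain of Zic1 and Zic4, which encode zinc finger factors of neural development, it is chr9:91381425-91381724, in an intron of Zic4. The last window is chr2:116553037-116553336, which lies between genes.
HoxB: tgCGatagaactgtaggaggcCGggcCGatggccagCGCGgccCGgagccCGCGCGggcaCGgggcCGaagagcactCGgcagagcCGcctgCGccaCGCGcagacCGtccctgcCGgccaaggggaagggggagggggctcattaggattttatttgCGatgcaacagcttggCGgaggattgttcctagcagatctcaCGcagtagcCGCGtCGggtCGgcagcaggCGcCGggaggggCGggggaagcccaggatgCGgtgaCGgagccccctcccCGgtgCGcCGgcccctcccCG
HoxD: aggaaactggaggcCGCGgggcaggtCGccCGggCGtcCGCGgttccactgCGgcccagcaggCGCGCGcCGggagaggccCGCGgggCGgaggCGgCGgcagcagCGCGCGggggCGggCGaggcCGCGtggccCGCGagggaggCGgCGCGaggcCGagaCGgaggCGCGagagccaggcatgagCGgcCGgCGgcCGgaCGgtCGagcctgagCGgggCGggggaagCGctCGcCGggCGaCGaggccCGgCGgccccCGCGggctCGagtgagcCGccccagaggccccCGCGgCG
HoxC: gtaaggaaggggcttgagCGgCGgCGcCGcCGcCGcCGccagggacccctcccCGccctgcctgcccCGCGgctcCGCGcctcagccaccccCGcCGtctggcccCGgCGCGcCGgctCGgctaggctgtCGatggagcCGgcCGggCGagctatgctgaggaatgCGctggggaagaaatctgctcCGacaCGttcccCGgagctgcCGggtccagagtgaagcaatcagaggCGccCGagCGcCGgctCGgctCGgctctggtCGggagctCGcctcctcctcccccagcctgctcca
Nr2f2: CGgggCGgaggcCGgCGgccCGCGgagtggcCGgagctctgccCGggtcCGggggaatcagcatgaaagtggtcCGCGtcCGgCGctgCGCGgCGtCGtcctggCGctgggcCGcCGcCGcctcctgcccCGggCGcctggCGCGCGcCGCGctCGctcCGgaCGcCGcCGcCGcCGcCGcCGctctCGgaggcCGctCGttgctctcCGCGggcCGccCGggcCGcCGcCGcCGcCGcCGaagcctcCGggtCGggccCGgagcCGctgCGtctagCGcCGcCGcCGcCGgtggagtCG
Zic1 and Zic4: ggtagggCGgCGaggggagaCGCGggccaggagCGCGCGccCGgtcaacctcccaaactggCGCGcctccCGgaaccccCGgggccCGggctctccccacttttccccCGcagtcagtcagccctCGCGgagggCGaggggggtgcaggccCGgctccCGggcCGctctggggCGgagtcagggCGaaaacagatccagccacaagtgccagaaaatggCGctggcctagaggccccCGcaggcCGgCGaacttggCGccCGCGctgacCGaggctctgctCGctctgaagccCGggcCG
Chromosome 2 member without a gene: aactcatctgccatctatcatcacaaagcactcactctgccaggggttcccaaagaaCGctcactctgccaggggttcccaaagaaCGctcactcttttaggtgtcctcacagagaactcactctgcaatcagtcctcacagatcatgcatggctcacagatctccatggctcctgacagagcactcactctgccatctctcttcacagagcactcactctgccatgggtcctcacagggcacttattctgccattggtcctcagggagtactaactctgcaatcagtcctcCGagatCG
The first 5 windows held between 33 and 61 CpGs, the most in Nr2f2, at a GC content of 71.3% to 83.3%. The window of the chromosome 2 member held 4 CpGs at a GC content of 52.0%. It is the best window of its domain, which is described with the sequence measurements.

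MicroRNA genes lay in wide domains at a share near that of annotated genes, and neural and Hox loci were among those that held them. Of 1005 annotated hairpins, 26 (2.59%) lay wholly in a member, beside 3.23% of annotated genes with a start site in one. The hairpins fell in 20 members, with some annotated on opposite strands of the same place. Mature sequences from RefSeq (GRCm38.p6) are shown for sets that share a sequence or a seed, with the seed, bases 2 to 8, in capitals.
miR-9-5p: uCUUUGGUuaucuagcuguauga
miR-10a-5p: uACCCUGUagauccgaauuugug
miR-10b-5p: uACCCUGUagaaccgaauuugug
miR-196a-5p: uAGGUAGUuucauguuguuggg
miR-132-3p: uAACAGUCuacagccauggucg
miR-212-3p: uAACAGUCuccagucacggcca
The same miR-9-5p is made from 3 genes, and each lay in a wide domain of its own. Mir9-1 lay in a domain of 15.0 kb on chromosome 3, Mir9-2 in one of 33.6 kb on chromosome 13 and Mir9-3 in one of 26.9 kb on chromosome 7. MiR-9 is a neural miRNA. Mir10a in the HoxB domain and Mir10b in the HoxD domain share the seed ACCCUGU, and Mir196a-1 in the HoxB domain and Mir196a-2 in the HoxC domain give the same miR-196a-5p. Mir132 and Mir212, neighbours that share the seed AACAGUC, lay together in the 9.82 kb domain of Hic1, a transcriptional repressor gene.

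Wide domains made up a small share of peaks and a larger share of the bound sequence. They were 3.18% of the peaks in the RING1B list, and the 8.81 Mb they span was 20.1% of its sequence. The median width was 11.7 kb (11689.5 bp, with quartiles at 9213 and 16793 bp), and 390 members were 10 kb or wider, 102 were 20 kb or wider and 28 were 30 kb or wider. The RING1B list held 619 peaks of 8 kb or more, of which 18 met SUZ12 without PCGF2 and 9 met neither, which left the 592 members. The 2948 narrower RING1B peaks with both factors, which serve as the comparison throughout, had a median width of 3974.5 bp. The limit of 8 kb cut through a continuous slope of widths. Just inside it were a peak of 8011 bp at Osbpl6, an oxysterol-binding protein gene, one of 8007 bp at Ache and Ufsp1, where Ache encodes acetylcholinesterase, and one of 8001 bp with no start site at chr6:29167442-29175442. Just outside were peaks of 7997 bp at Dpf3, 7964 bp at Ntrk3, the gene of a neurotrophin receptor, and 7963 bp at Irf2 and Gm16675.

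**Figure D1:**
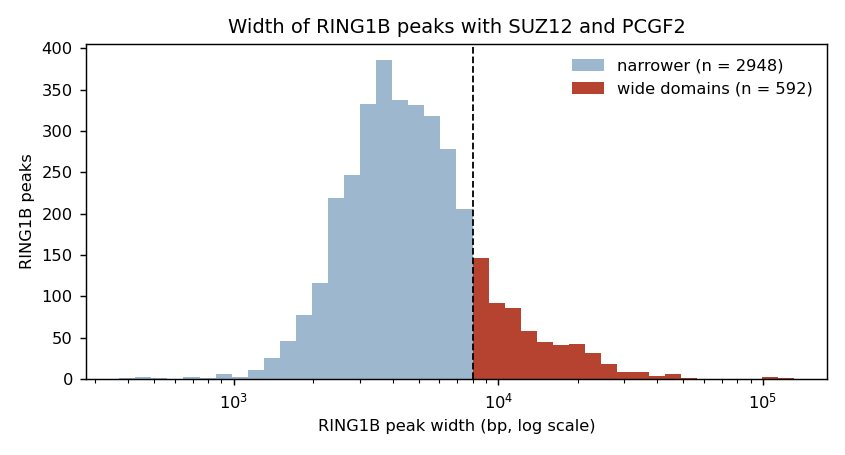
Histogram of the width in bp (log axis) of all RING1B peaks that meet both SUZ12 and PCGF2, with the 8 kb limit dashed. The 592 wide domains form the right shoulder of a single distribution whose narrower part, 2948 peaks, has its median at 3974.5 bp.

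Past the Hox clusters, whose genes pattern the body axis, the widest domains lay at genes for regulators of particular lineages and at the Cdkn2a locus. The HoxB domain was 128.6 kb (chr11:96248166-96376754, Hoxb9 to Hoxb1). The HoxD domain was 106.9 kb (chr2:74651985-74758844, Evx2 to Hoxd4) and the HoxC domain 106.5 kb (chr15:102907430-103013921, Hoxc13 to Hoxc6). The HoxB and HoxD domains each held the start sites of 12 annotated genes. Below 100 kb, the widest domain measured 50.7 kb, at Nr2f2 (chr7:70322406-70373089). It was followed by 48.3 kb at Zic1 and Zic4 (chr9:91348630-91396950), 47.4 kb at Tfap2a, a factor of neural crest and surface ectoderm (chr13:40699585-40747011), and 46.6 kb at the Wnt ligand genes Wnt6 and Wnt10a (chr1:74763258-74809867). Hand2, a factor of heart and limb development, lay in 45.6 kb (chr8:57309360-57354936) and Nr2f1, the paralogue of Nr2f2, in 45.0 kb (chr13:78168581-78213587). A domain of 43.2 kb covered the start sites of Skida1 and Mllt10 (chr2:18023206-18066445), and one of 42.3 kb those of Cdkn2a and Cdkn2b, inhibitors of cyclin-dependent kinases that act in senescence (chr4:89269341-89311681).

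The Hox clusters were not bound as perfectly unbroken blocks. HoxC was split, since a second domain of 28.0 kb with Hoxc4 (chr15:103014747-103042775) began after a gap of 825 bp, and the start site of Hoxc5, at position 103014008 of chromosome 15, lay in that gap. Hoxc5 was therefore counted outside wide domains although RING1B peaks stood on both sides of it. The HoxB domain was spanned by 1 SUZ12 peak but by 5 PCGF2 peaks, the most of any member, and PCGF2 covered 84.7% of it. The HoxC and HoxD domains each met 2 PCGF2 peaks, which covered 98.2% and 93.4%.

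SUZ12 peaks covered nearly the whole of most wide RING1B domains, while PCGF2 peaks lay further in. The median member was covered 98.3% by SUZ12 (95% interval of the median 97.7% to 98.8%) and 76.7% by PCGF2 (74.3% to 78.3%). A single SUZ12 peak met 533 members, and a single PCGF2 peak met 511. SUZ12 covered more of the domain than PCGF2 did in 570 of 592 members. Over the 1184 edges of the 592 members, the outermost SUZ12 edge went either way, with a signed median of 27 bp outside the RING1B edge. It lay inside at 546 edges, at 138 (11.7%) by 1 kb or more, beside 3.82% of edges of narrower peaks. The PCGF2 edge lay a median of 1275 bp inside it, and 1153 of the 1184 PCGF2 edges were inside. The PCGF2 list kept peaks found in every replicate, and the other lists kept peaks found in both lines, so a difference in how the lists were made cannot be told apart from a difference in binding at the edges.

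By median cover, PCGF2 covered more of wide domains than of narrower peaks, and SUZ12 did not. Among the narrower peaks the median cover was 61.0% for PCGF2 (60.1% to 61.6%) and 99.2% for SUZ12 (98.9% to 99.6%), the latter higher than in wide domains on 18 of 19 autosomes. Over summed RING1B sequence, SUZ12 covered 94.2% of wide domains and 92.8% of narrower peaks, so its direction depended on the summary. PCGF2 covered 75.1% and 60.3%. The median PCGF2 cover of wide domains was the higher one on 18 of 19 autosomes, with differences from -5.99 to 22.5 percentage points. Cover of 90% or more by PCGF2 was found in 117 members (19.8%) and 123 narrower peaks (4.17%), and cover under 50% in another 117 members (19.8%) and 791 narrower peaks (26.8%). In base pairs, the edges of PCGF2 lay further in at wide domains, since the median inset of narrower peaks was 709.5 bp. Within the wide domains cover by both factors was higher in wider members, and the narrowest did not exceed the narrower peaks. With the members split by width into 4 groups of 148, from 8001 to 9205 bp up to 16860 bp and above, median PCGF2 cover went through 59.9%, 68.2%, 78.3% and 88.1%, and median SUZ12 cover through 96.0%, 96.9%, 98.3% and 99.6%. The rank correlation of width with cover over the 592 members was 0.47 for PCGF2 and 0.24 for SUZ12 (Spearman's rho, as a description, since width is the denominator of cover and all members share the same lists). The members hold 46.5% of all base pairs in the PCGF2 list and 28.7% of those in the SUZ12 list, against the 20.1% for RING1B. Selection of members by overlap with both factors enters these shares.

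**Figure D2:**
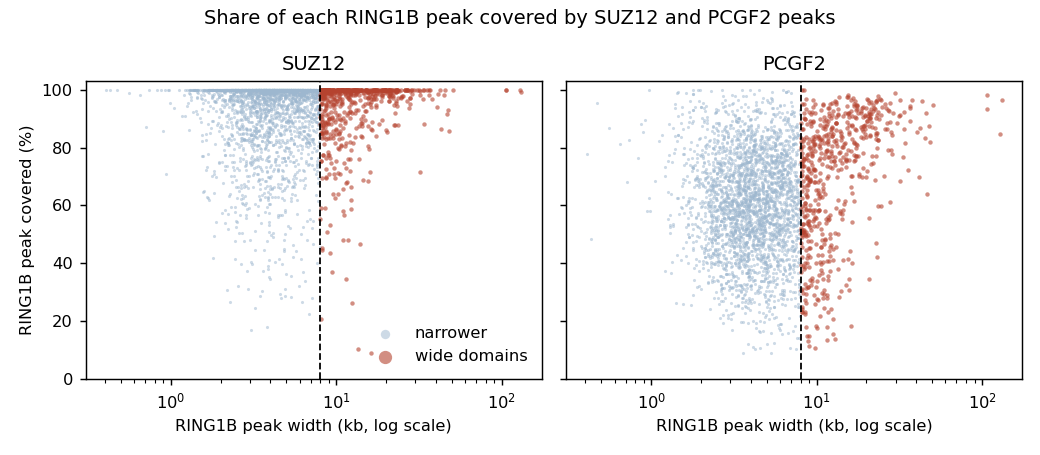
Each point is a RING1B peak with SUZ12 and PCGF2, placed by its width in kb (log axis) and by the share of it that SUZ12 peaks (left) or PCGF2 peaks (right) cover. SUZ12 cover sits near 100% on both sides of the 8 kb line, with a median of 98.3% in wide domains, while PCGF2 cover is spread widely and its low values thin out above 20 kb.

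A few members departed from this arrangement. The lowest SUZ12 cover was at Kdm6b, which encodes a demethylase of the PRC2 mark. Its RING1B domain of 16.1 kb (chr11:69405711-69421828) was covered 9.11% by SUZ12 and 18.4% by PCGF2. The gene-free member of 13.5 kb on chromosome 2 had 10.2% SUZ12 cover but 72.3% PCGF2 cover. The lowest PCGF2 cover was 10.8% at a gene-free member of 9.83 kb (chr7:27359616-27369444), then 11.4% at Dmrtb1 and 13.0% at Myl7, the gene of an atrial myosin light chain, where SUZ12 covered 62.6%, 70.9% and 77.4%. In total 12 members had SUZ12 cover under 50%. The 46.6 kb domain of Wnt6 and Wnt10a met 3 peaks of each factor, with 91.6% cover by SUZ12 and 64.0% by PCGF2.

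**Figure D3:**
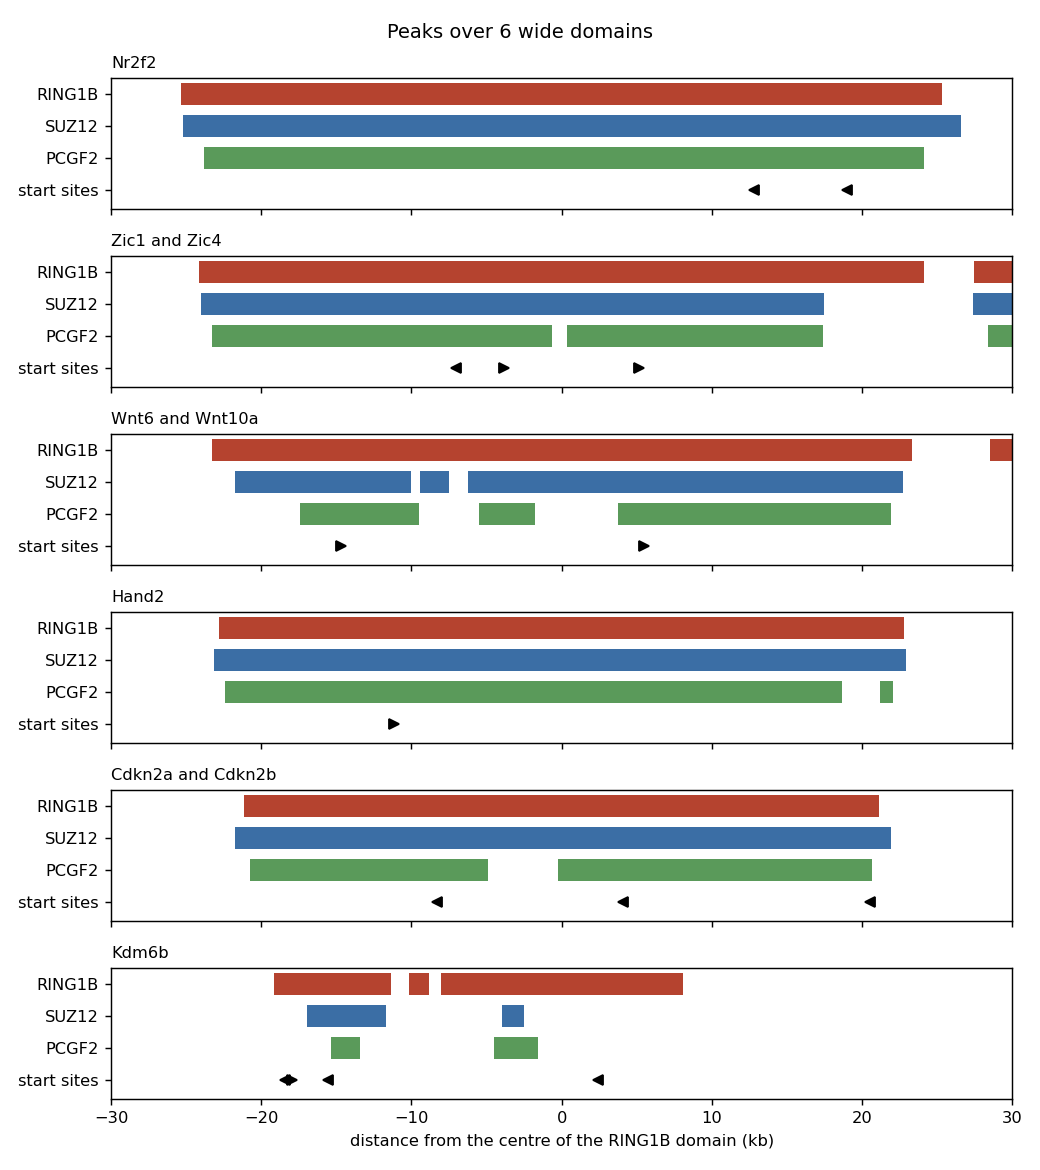
Peaks of RING1B, SUZ12 and PCGF2 over 6 wide domains, drawn to scale by distance in kb from the centre of the RING1B domain, with arrowheads for start sites of protein-coding genes pointing in the direction of transcription. At Nr2f2 all 3 peaks span nearly the same 50.7 kb, at Wnt6 and Wnt10a SUZ12 and PCGF2 are broken into 3 peaks each, and at Kdm6b both cover only a small part of the RING1B domain.

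Wide domains nearly always held a start site, and many of their genes encode developmental transcription factors. A curated RefSeq transcription start site (TSS) lay in 537 of 592 members (90.7%, 95% Wilson interval 88.1 to 92.8), beside 58.3% of all RING1B peaks. Wilson intervals here take each peak as an independent draw and reflect nothing but counting error. The share was 81.6% (80.2 to 83.0) for narrower peaks with both factors, 65.9% for RING1B peaks with SUZ12 and without PCGF2, and 48.5% for those with neither. A wider peak has more room for a start site, and per 10 kb the median was 0.95 genes in wide domains and 2.29 in narrower peaks. A start site stood within 500 bp of the midpoint in 17.9% of wide domains and 45.4% of narrower peaks. One gene started in 369 members, 2 genes in 138 and 4 or more in 10. In all, 785 of 24318 annotated genes (3.23%) started in a wide domain, 641 of them protein-coding and 144 lncRNA genes.

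Many of these genes lay inside the domain from end to end. Of the 641 protein-coding genes, 305 (47.6%) lay wholly within their domain, beside 131 of 2402 (5.45%) for narrower peaks. A wider peak has more room for a whole gene, so the selection of members by width enters this contrast. Among the 256 members whose only annotated gene was protein-coding with a single start site, the median gene length was 6719 bp (5902 to 8389), beside 45068.5 bp (41926 to 49908) for the 1524 narrower peaks of the same kind and 14413 bp for all 17277 protein-coding genes with 1 start site. The 92 of these genes that are on the transcription factor lists described next had a median length of 4767 bp, and the other 164 one of 9690.5 bp. The domain reached further into the gene than away from it. From the start site it ran a median of 6935.5 bp in the direction of transcription and 4413 bp upstream, and it was longer downstream in 187 of 256 (73.0%). In narrower peaks the values were 2408 and 1529.5 bp, longer downstream in 80.2%, so the median share lying downstream was 61.0% in wide and 61.1% in narrower peaks. The 23.4 kb domain of Isl1, a LIM factor of heart and motor neurons, for example, ran 17850 bp downstream and 5558 bp upstream and held the whole gene of 11419 bp. The 21.01 kb domain of Gata4, a factor of heart and endoderm, ran 8060 bp downstream and 12950 bp upstream and covered 17.4% of the gene.

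Most genes of the homeobox lists started in a wide domain, as did all those of Tfap2. Across the 17 transcription factor lists, 210 of 305 genes (68.9%, 63.4 to 73.8) started in a wide domain, beside 3.23% of all annotated genes, and a further 46 started in a narrower peak with both factors. The 8 homeobox lists together had 129 of 148 genes (87.2%) in wide domains. These lists do not hold every homeobox gene. Pou5f1 and Nanog, for example, were counted with the pluripotency genes, and neither started in a wide domain. The 210 genes of the 17 lists fell in 172 of the 592 members (29.1%), and in 36 of the 50 widest. The lists were drawn up with earlier results of these data known, and their genes are textbook Polycomb targets, so their shares describe the domains and are no independent evidence.

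Among the listed homeobox genes, the clusters and paralogue pairs were held nearly complete. Of 39 Hox genes 37 started in a wide domain, the others being Hoxc5 and Hoxd1, whose start site lay in a narrower peak. All 12 LIM homeobox genes did so, the widest domains being those of Lhx2 (27.3 kb), Lmx1b (23.6 kb), Isl1 (23.4 kb) and Lhx6 (19.6 kb), which act in forebrain, limb and motor neuron development. So did all 6 Dlx genes, with Dlx5 and Dlx6 sharing 37.8 kb and Dlx1 and Dlx2 sharing 30.7 kb, and all 6 Irx genes, from 20.97 kb at Irx2 to 8.08 kb at Irx6. Of 14 Nkx genes 11 were held, led by Nkx2-3 (26.6 kb), Nkx2-1 (24.6 kb), Nkx2-5 (22.8 kb) and Nkx2-2 (21.2 kb), whereas Nkx2-6 started in a narrower peak and Nkx6-3 at no RING1B peak. The homeobox family of Six3, a regulator of forebrain and eye development, had 4 of 6 genes in wide domains, the widest at Six3 itself (26.7 kb), without Six4 and Six5. POU factors of classes III and IV numbered 6 of 7, led by Pou3f3 (34.0 kb) and Pou3f2 (27.8 kb), without Pou3f4. Of the 58 other listed homeobox genes 47 were held, among them En1 (28.0 kb) and Uncx (26.9 kb). The remaining 11 all started in narrower peaks with both factors.

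Of the other factor families, Tfap2 was held in full and the rest in part. All 5 Tfap2 genes started in wide domains, from 47.4 kb at Tfap2a to 9.55 kb at Tfap2c. Pax genes, regulators of eye, kidney and neural crest among others, numbered 7 of 9, with 36.9 kb at Pax3, 36.5 kb at Pax6 and 33.4 kb at Pax2, and without Pax4 and Pax8. Gata genes numbered 4 of 6, Gata3 (28.7 kb), Gata4 (21.01 kb), Gata2 (18.6 kb) and Gata6 (15.2 kb), without Gata1 and Gata5. T-box genes numbered 10 of 16, led by Tbx3 (33.9 kb) and Tbx15 (29.6 kb), and Zic and Gli genes 5 of 8, those outside including Gli1 and Gli3. Fewer were held of the basic helix-loop-helix factors, 17 of 37, led by Hand2 (45.6 kb) and Neurod2 (27.9 kb), of Fox factors, 19 of 44, among them Foxa2 (22.8 kb), of nuclear receptors, 6 of 13, and of Sox factors, 8 of 19, led by Sox1 (23.2 kb) and Sox21 (19.1 kb). Sox2, which ESCs express, started in a RING1B peak with neither factor.

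Signalling genes were found both in wide domains and in narrower peaks. Of 79 genes for Wnt, Fgf, TGF-beta and Hedgehog components, 20 (25.3%) started in a wide domain and 32 in a narrower peak with both factors, beside 785 and 2609 of all 24318 annotated genes. Wnt ligands numbered 7 of 19, with Wnt1 at 25.4 kb and Wnt5a at 18.7 kb after the shared domain of Wnt6 and Wnt10a. Fgf ligands numbered 3 of 22, namely Fgf8 (15.0 kb), Fgf9 (11.5 kb) and Fgf3 (8.98 kb). TGF-beta ligands numbered 6 of 31, between 10.4 kb at Inha and 8.02 kb at Bmp4, close to the limit. Hedgehog components numbered 4 of 7, with 2 in narrower peaks. All 3 ligands were among them, Shh (16.4 kb), Ihh (10.9 kb) and Dhh (9.51 kb), with the receptor gene Ptch1 (13.1 kb), while Smo and Hhip were not.

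Few ribosomal protein and pluripotency genes started in a wide domain, but the share of all annotated genes was itself only 3.23%. Of 65 ribosomal protein genes 0 started in a wide domain, although 46 had a RING1B peak at a start site, in 44 cases one with neither SUZ12 nor PCGF2. Of 20 pluripotency genes 1 (5.0%) started in a wide domain, Tbx3, and 3 started in a narrower peak with both factors. Nanog and Zfp42 had no RING1B peak at their start site. Polycomb genes themselves numbered 4 of 31 (12.9%), beside 3.23% of all annotated genes and close to the 3 of 22 for Fgf ligands. Among them was Cbx8 (31.6 kb), which encodes a reader of the PRC2 mark in canonical PRC1. Pcgf1 (16.4 kb) and Bmi1 (15.3 kb), which encode alternative partners of RING1B, were others. Pcgf1 shared its domain with the homeobox gene Tlx2, and Bmi1 shared its domain with Commd3.

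**Figure D4:**
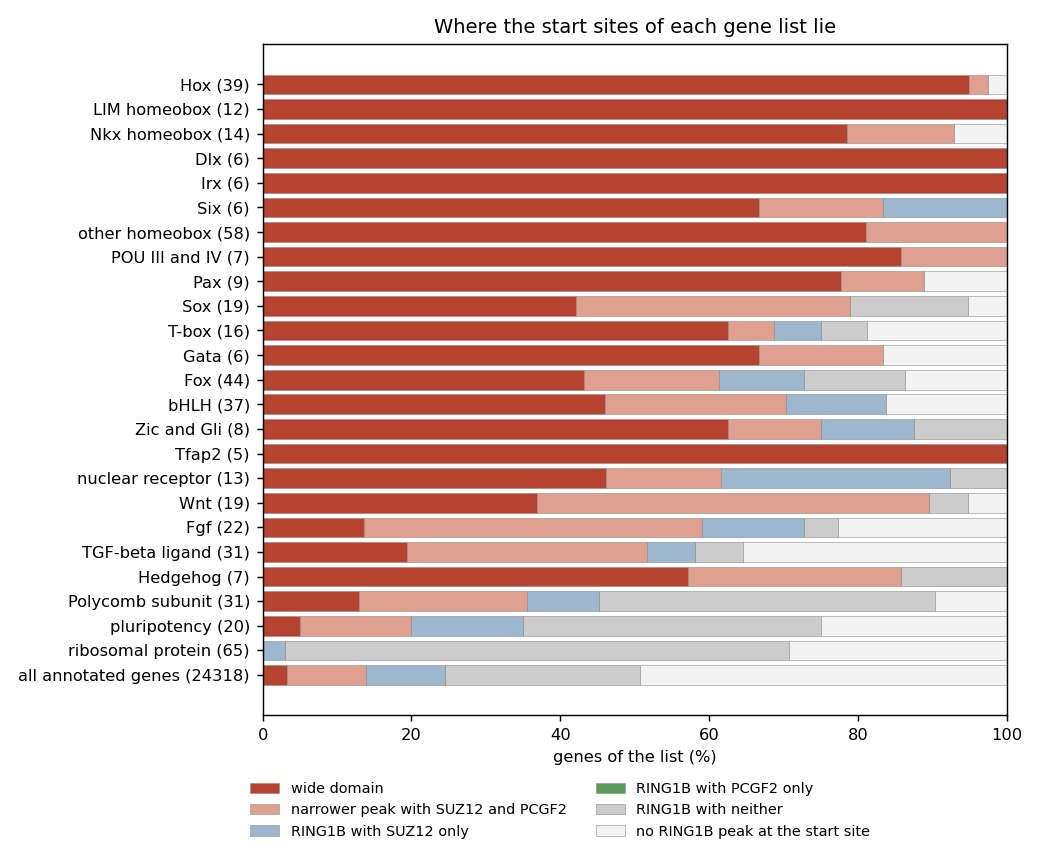
For each gene list, with the number of annotated genes in brackets, the bars give the percentage of genes whose start site lies in a wide domain, in another class of RING1B peak, or in none. All LIM, Dlx, Irx and Tfap2 genes lie in wide domains, beside 3.23% of all annotated genes and none of the 65 ribosomal protein genes.

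Most members held no gene of any list, 398 of 592. The widest of these, chosen after their values were seen, were the Skida1 and Cdkn2a domains described above, then 40.5 kb over the start sites of 7 protocadherin genes of the gamma cluster from Pcdhgb5 to Pcdhga12 on chromosome 18, 35.6 kb at Nfix, 33.6 kb at the miR-9 host C130071C03Rik, 31.9 kb at Zfhx3 and 28.5 kb at Prdm8. Nfix, Zfhx3 and Prdm8 encode transcriptional regulators that no list held. Protocadherin gamma genes encode neuronal adhesion molecules that are chosen by alternative promoters.

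The 55 members without a curated start site were at most 20.7 kb wide. The 5 widest measured 20.7 kb (chr15:103163569-103184268), 20.3 kb (chrX:12122155-12142409), 19.0 kb (chr7:79529666-79548622), 18.6 kb (chr6:51168014-51186619) and 15.6 kb (chr9:89871783-89887342). Some stood beside a member with genes. The one on chromosome X lay 7589 bp from a member holding a start site of Bcor, and the one on chromosome 7 lay 8.66 kb from the Mir9-3 domain. PCGF2 cover of these 5 ran from 34.5% to 92.6%, and SUZ12 cover from 85.4% to 99.5%.

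The sequence of wide domains held several CpG islands rather than 1. CpG islands were called here as joined 200 bp windows with a GC content of at least 50% and a CpG observed/expected ratio of at least 0.6. At least 1 island lay in 591 of 592 members (99.8%), beside 84.3% of 18615 RING1B peaks (all but those with PCGF2 alone), and 2 or more lay in 554 (93.6%, 91.3 to 95.3), beside 1182 of 2948 narrower peaks (40.1%, 38.3 to 41.9). The median was 4 islands in a wide domain and 1 in a narrower peak, the former being higher on 19 of 19 autosomes. Per 10 kb the medians were close, 3.60 (3.45 to 3.69) and 3.55 (3.46 to 3.65), and wide domains had the higher one on 9 of 19 autosomes. The longest island of a member had a median length of 1780 bp (1700 to 1900), against 1160 bp (1140 to 1180). It, too, was longer in wide domains on 19 of 19 autosomes, although a wider peak also has more room for a long island. The Nr2f2 domain held 21 islands, the Zic1 and Zic4 domain 23, Tfap2a 19, Hand2 12 and Nr2f1 11.

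Over the whole width, the CpG content of a wide domain was slightly lower than that of a narrower peak, but the order depended on the window. The median CpG observed/expected ratio was 0.45 (0.44 to 0.45) in wide domains and 0.50 (0.49 to 0.51) in narrower peaks, lower in wide domains on 18 of 19 autosomes. In the central 4 kb it was higher in wide domains, 0.52 (0.50 to 0.54) beside 0.50 (0.49 to 0.51), a window about as wide as the whole of a typical narrower peak, and in the central 1 kb it was 0.50 beside 0.69. The median share of the peak in islands was 29.7% and 34.6%. The GC content was 51.9% and 53.2%, and the share of soft-masked repeats 14.3% and 11.5%. The profile along the peak used segments set by peak width, so they were longer in bp in wide domains. Peaks were aligned on their edges, not on start sites or islands, so the profiles do not share a bp scale. In the narrower peaks CpG density rose to a sharp centre, with medians of 61.5 and 62.4 CpGs per kb in the segments on either side of the midpoint and 11.98 and 11.9 in the outermost segments of the peak. In wide domains it was 34.4 and 33.1 beside the midpoint and 13.2 at both ends. In the segments centred at 25% and 75% of the width it was 24.9 and 26.9 in wide domains and 21.2 and 20.2 in narrower peaks. Just outside the edge of lower coordinate both fell to about the same level, 9.57 CpGs per kb in wide domains and 9.78 in narrower peaks. In the segment furthest from the peak on that side the medians were 9.96 and 8.49. The densest 1 kb window had a median ratio of 0.88 in wide domains and 0.80 in narrower peaks, again with more windows to choose from in the wide ones.

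**Figure D5:**
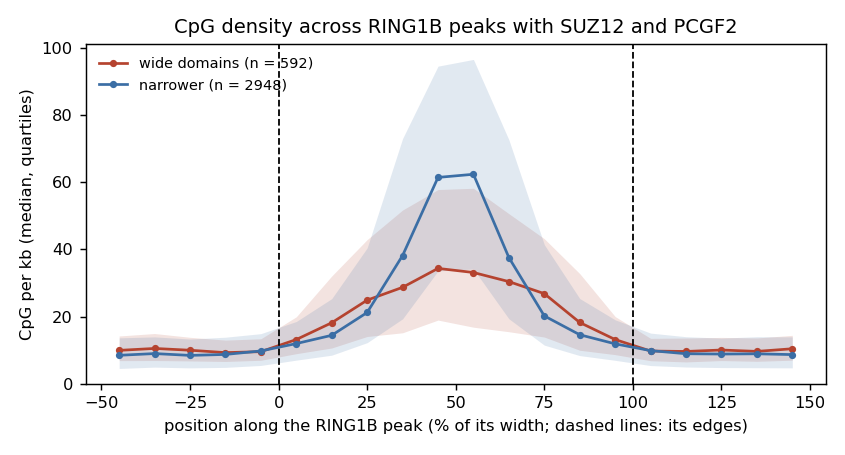
Median number of CpG dinucleotides per kb, with quartiles shaded, in 20 equal segments that run from 50% of the peak width before the RING1B peak to 50% after it; the dashed lines are the peak edges. Narrower peaks rise to 62.4 CpGs per kb just past the midpoint, and wide domains to a lower and broader top of 34.4 per kb just before it. Outside the peak the medians lie between 9.29 and 10.53 per kb for wide domains and between 8.46 and 9.88 for narrower peaks.

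Among the members, CpG density varied little with width. From the narrowest to the widest of the 4 width groups the median CpG observed/expected ratio was 0.45, 0.45, 0.45 and 0.44, while the median number of islands went through 3, 4, 5 and 9 and islands per 10 kb through 3.32, 3.47, 3.59 and 4.01. PCGF2 cover, by contrast, went with CpG content, at a Spearman's rho of 0.40 over the 592 members, and SUZ12 cover at 0.47 with PCGF2 cover. These are descriptions over sites that share their libraries and their sequence composition. The highest ratios were 0.77 at Zswim6, 0.73 at Efna5, which encodes an ephrin ligand, and 0.72 at Nkx2-4, in members of 8.30, 8.67 and 9.27 kb with 1 island each.

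The lowest ratio was that of the chromosome 2 member printed above (chr2:116548853-116562342), at 0.02 over 13.5 kb with 16 CpGs and 0 islands. Its DNA was a tandem repeat. Shifted by 29 bp against itself, 68.4% of its bases matched, whereas the best such match at any shift from 5 to 200 bp had a median of 29.8% and a highest value of 42.3% over the other members. The nearest RING1B peak was 411930 bp away. The next lowest ratios, 0.23 at chr2:33574882-33585715 and 0.23 at chr8:84735804-84745800, belonged to members without a start site that held 2 and 3 islands.

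The promoters of genes in wide domains were CpG-rich but not the richest among RING1B-bound promoters. In RefSeq promoter windows of 300 bp (250 bp before the start site and 50 bp after, GRCm38.p6), the 648 windows of wide domains had a median of 20 CpGs, with quartiles of 12 and 28. The median was 24 in the 2229 windows of narrower peaks, 23 in the 6113 at RING1B peaks with neither factor and 4 in the 11906 with no RING1B peak. The E-box CACGTG, a palindrome and so the same on both strands, was in 54 windows of wide domains (8.33%), beside 7.95% of all 23273 promoters. It was in 8.17% of windows in narrower peaks and in 13.0% of those at RING1B peaks with neither factor. The TATA box TATAAA, searched on the strand of the gene in the 60 bp before the start site, was in 15 windows of wide domains (2.31%), beside 3.23% of all promoters. The share was 2.24% in narrower peaks, 1.22% at RING1B peaks with SUZ12 and without PCGF2, 1.08% at those with neither factor and 4.96% at promoters with no RING1B peak.

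Wide domains lay nearer to other wide domains and to other RING1B peaks than the narrower peaks with both factors did. Of 592 members 366 (61.8%, 57.8 to 65.6) had another within 1 Mb, 141 (23.8%) within 100 kb and 36 within 10 kb. Of 2948 narrower peaks, 1275 (43.2%, 41.5 to 45.0) had a wide domain within 1 Mb, 10.1% within 100 kb and 46 within 10 kb. The gap to the nearest RING1B peak of any kind had a median of 14.7 kb (14687 bp, 12324 to 17464), beside 35920 bp (32443 to 39226) for narrower peaks. It was shorter for wide domains than for narrower peaks on 17 of 19 autosomes. The median gap was 18859.5 bp for RING1B peaks with SUZ12 and without PCGF2 and 16259 bp for those with neither factor. A short gap was therefore not particular to wide domains. A RING1B peak stood within 1 kb of 62 members (10.5%) and of 99 narrower peaks (3.36%). Members chained at gaps of 100 kb or less formed 64 groups, 11 of them with 3 or more. With 4 members each, the largest groups were one of 192.5 kb on chromosome 1 that runs from Wnt6 and Wnt10a through Cdk5r2 and Fev to Ihh, and one of 163.4 kb on chromosome X around Bcor. The groups of 3 included Nkx2-1, Nkx2-9 and Pax9 over 187.1 kb on chromosome 12, Gsx1, Pdx1 and Cdx2 over 136.4 kb on chromosome 5, and Wnt10b, Wnt1 and Dhh over 129.5 kb on chromosome 15.

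Members were found on all 19 autosomes and on X, which held few for its length. Chromosome 2 had 64 and chromosome 11 had 60, which per Mb is 0.35 and 0.49, whereas chromosome 16 had 12 (0.12 per Mb) and X had 7 (0.041 per Mb). As a share of the RING1B peaks with both factors, wide domains made up 12.4% (chromosome 6) to 21.2% (chromosome 5) on the autosomes and 8.24% on X. As a share of all RING1B peaks they made up 2.55% on X. That was within the autosomal range of 2.13% (chromosome 16) to 4.28% (chromosome 2). Of the 7 on X, 4 were the group at Bcor, which encodes a partner of PCGF1 in a variant PRC1 complex. The others included those at Sox3 (10.6 kb) and Pcdh19 (8.36 kb), genes with roles in the brain.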

How the data were processed

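ChIP-seq peak lists for RING1B, SUZ12 and PCGF2 in untreated ESCs were used. The authors used Bowtie 2 for alignment, to mm10 plus the spike-in genome, and MACS2 in broad mode with Input as control for peaks. RING1B and SUZ12 peaks were those found in both lines on merged replicates, RING1B peaks without a significant loss of over 2-fold after tamoxifen in PRC1CKO cells were dropped, and PCGF2 peaks were those found in every PRC1CPM replicate. The deposited values are peak starts and ends in bp, with no height or count, so the lists show no depth, and read totals were not used here. Each list stands for all its samples together.

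Cover was the share of a RING1B peak under peaks of the other list. Genes were curated RefSeq transcripts (GRCm38.p6) of protein-coding and lncRNA genes. CpG observed/expected was the CpG number times length over the product of C and G numbers. Islands within 100 bp were joined, with windows moved by 10 bp, and repeats were lower-case bases of the assembly. Intervals of medians are 95% binomial order-statistic intervals. Peaks are not replicates, so no test was run. Named were the 12 widest members, 3 on each side of 8 kb, the 5 widest without a start site, the 3 lowest for each cover, the 3 highest and 3 lowest in CpG ratio, the 3 with most genes, and up to 4 genes a list. Some items that this rule names are not reported here. The members, lists and alternatives were chosen with earlier results of these data known. The code was tested on simulated data, where 0 of 1200 intervals and 0 of 20 sequences came out wrong. Tools were matplotlib 3.10.9, pysam 0.24.0, SciPy 1.17.1, pandas 2.3.3, NumPy 2.4.6 and Python 3.11.15.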

Additional observations from a re-analysis of the deposited data

How the results depend on the processing

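The number of members, their share of sequence, SUZ12 and PCGF2 cover, the shares with a start site and with a neighbour, the CpG ratio and the share of transcription factor genes were recomputed under other choices, and 31 of 59 values stayed within the 95% interval of the reported one, or within 1.5 times for the number of members. With a minimum width of 6 kb there were 1094 members with 28.0% of RING1B sequence, 68.5% median PCGF2 cover, 76.1% of transcription factor genes and 69.4% with a neighbour within 1 Mb. At 10 kb the values were 390 members, 16.1%, 99.0% SUZ12 cover, 81.9% PCGF2 cover and 52.6% with a neighbour. Requiring each factor to cover at least 50% gave 17.2% of sequence, 99.0% and 81.4% cover, 92.8% with a start site, a CpG ratio of 0.46 and 53.5% with a neighbour. Joining RING1B peaks 1 kb or less apart gave 21.3% of sequence and 97.6% and 74.0% cover. Without the 10 widest members 18.7% of sequence and 55.1% of transcription factor genes were left. With predicted transcripts 94.3% of members had a start site. With curated transcripts only, 17.9% had one within 500 bp of the midpoint. The CpG ratio was 0.50 in the central 1 kb, 0.52 in the central 4 kb and 0.88 in the densest 1 kb. A neighbour lay within 500 kb of 45.9% and within 2 Mb of 74.5%.

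No paired analysis was possible because each list is a single set of positions, and leaving out a replicate was not run for the same reason. A domain split by a short gap, as at HoxC, counts as separate peaks, and the lists hold neither depth nor signal. The other values, those of narrower peaks among them, were not recomputed. The interval for the share of sequence treats RING1B peaks as the units counted.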
